A study of Mus musculus with 19 samples.

Results

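Cells of the mouse medial amygdala, a limbic nucleus that handles social, threat and stress signals, were compared after seizure and after acute stress by immobilization. Of 20679 cells in the deposited table of all cells, 9178 came from these treatments, in 2 seizure libraries (2154 and 1412 cells) and 4 immobilization libraries (2189, 1828, 1413 and 182 cells), out of 19 libraries in the series. The members were the libraries with these treatment labels that were made with Act-Seq, a dissociation protocol built to limit transcription while the tissue is taken apart. Cells were caught in droplets with barcoded beads (Drop-seq), and transcripts were counted by unique molecular identifiers (UMIs). All mice were male C57BL/6J under a reverse light cycle. Seizure 1 and immobilization 2 and 3 came from mice of 9 weeks, and seizure 2 and immobilization 1 and 4 from mice of 8 weeks. The labels name neither what induced the seizures nor how long either treatment lasted or how long after it cells were taken. They do not say whether each library had its own animals; p-values here reflect only how much libraries vary, which may be technical. Naive libraries, all from mice of 8 weeks, are given as an unstressed level, and their comparison with either treatment was not tested here. UMIs were summed per library within each of the 7 cell classes that the authors wrote into the cell names, AS, EN, MG, MU, OL, OPC and N.

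Seizure drives neurons into synchronous firing. Calcium entry and kinase cascades then switch on immediate early genes without new protein synthesis, many of them through phosphorylated CREB bound to cyclic AMP response elements and through serum response factor. Their products are mostly transcription factors, such as the AP-1 subunits Fos, Fosb, Jun and Junb and the zinc finger factors Egr1 and Egr4, together with feedback regulators such as the phosphatase Dusp1 and the synaptic protein Arc. Glia and vessel cells induce many of the same genes when they meet growth factors, cytokines or stress. Immobilization is a strong psychological stressor that raises glucocorticoids, which act through their nuclear receptor on genes such as Fkbp5 (a co-chaperone that dampens the receptor), Tsc22d3 (glucocorticoid-induced leucine zipper) and Cdkn1a (the cell cycle inhibitor p21).

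The promoters of 5 immediate early genes that were higher after seizure in AS or N are shown, and were not picked by rank. All 5 held the element marked below. Jun, also higher in AS and N, was scanned too, held none and is not shown. The 5 thus do not show how common the element is before such genes. Each run holds the 250 bases upstream of the gene start in RefSeq's table, build GRCm38.p6, written 5′ to 3′ on the gene's strand. GENCODE, whose gene bounds are printed below, places the first base of Nr4a1, Npas4 and Fkbp5 further upstream, so that these RefSeq windows lie inside the GENCODE genes. Capitals mark the core of the cyclic AMP response element, TGACG or its reverse complement CGTCA, and the full element TGACGTCA, which contains both cores.
Fos: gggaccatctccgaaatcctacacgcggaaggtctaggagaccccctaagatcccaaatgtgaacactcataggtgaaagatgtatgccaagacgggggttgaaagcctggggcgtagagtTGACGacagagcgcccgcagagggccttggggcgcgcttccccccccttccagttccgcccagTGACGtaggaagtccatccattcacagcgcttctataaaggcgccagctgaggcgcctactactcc
Junb: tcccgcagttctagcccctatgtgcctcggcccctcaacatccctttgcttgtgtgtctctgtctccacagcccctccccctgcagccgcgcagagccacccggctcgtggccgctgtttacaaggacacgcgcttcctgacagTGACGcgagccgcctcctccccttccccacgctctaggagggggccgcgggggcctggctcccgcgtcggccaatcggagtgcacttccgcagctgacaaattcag
Nr4a1: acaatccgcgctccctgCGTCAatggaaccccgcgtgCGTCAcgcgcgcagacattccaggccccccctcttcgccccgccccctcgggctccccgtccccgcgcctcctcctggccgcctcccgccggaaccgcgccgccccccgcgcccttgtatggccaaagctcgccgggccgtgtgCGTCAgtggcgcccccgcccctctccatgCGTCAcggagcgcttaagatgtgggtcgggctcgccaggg
Btg2: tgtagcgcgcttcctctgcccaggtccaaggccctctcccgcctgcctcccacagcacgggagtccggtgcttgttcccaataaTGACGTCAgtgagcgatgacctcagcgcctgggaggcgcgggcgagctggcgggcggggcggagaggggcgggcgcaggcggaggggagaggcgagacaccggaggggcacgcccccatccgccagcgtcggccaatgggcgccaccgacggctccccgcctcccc
Npas4: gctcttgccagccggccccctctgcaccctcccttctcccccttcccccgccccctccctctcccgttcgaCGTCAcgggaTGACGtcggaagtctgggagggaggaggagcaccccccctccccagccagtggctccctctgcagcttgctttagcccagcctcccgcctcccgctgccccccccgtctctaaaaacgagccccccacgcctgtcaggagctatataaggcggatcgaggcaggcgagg
The windows lie at chr12:85473640-85473889 (Fos, plus strand), chr8:84978749-84978998 (Junb, minus strand), chr15:101266596-101266845 (Nr4a1, plus strand), chr1:134079156-134079405 (Btg2, minus strand) and chr19:4989972-4990221 (Npas4, minus strand). Fos held 2 cores (129 to 125 and 66 to 62 bases upstream), Junb 1, Nr4a1 4 and Npas4 2, and Btg2 held the full element (166 to 159 bases upstream). Over 32851 RefSeq windows of the same length, 17.8% held the core on either strand and 1.55% the full element. The RefSeq windows of Jun and Fkbp5 held neither. None of these 7 windows held the AP-1 element TGANTCA (6.75% of all windows) or AGAACA, the core of the glucocorticoid receptor's element, or its reverse complement (16.1%). A match is a description of these letters and does not show that a factor binds there.

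The 6 libraries held 292455 (immobilization 4) to 3723521 UMIs (immobilization 1) and a median of 1167.5 to 1383 UMIs per cell. Immobilization 4 was the shallowest throughout, so that 1 UMI there is 13.4 CPM (counts scaled to the same total UMIs per library and class) in AS and 44.0 CPM in MG, and a value of 0 in that library says little. Its 5 MU cells left MU with 3 immobilization libraries. The 6 libraries shared 1 of their 9177 barcodes.

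Each class was checked against marker genes of 7 cell types by asking which marker list had the most UMIs in each cell. In 6 classes the list of the named type led in most cells: astrocyte genes in 2576 of 2581 AS cells (99.8%), oligodendrocyte genes in 795 of 795 OL cells, microglia genes in 875 of 906 MG cells (96.6%), mural genes in 141 of 150 MU cells, endothelial genes in 387 of 428 EN cells (90.4%) and oligodendrocyte precursor genes in 359 of 442 OPC cells (81.2%). In N, neuron genes such as Snap25, Syt1 and Meg3 led in 305 of 3876 cells (7.87%), and astrocyte genes led in 3388. Where neuron genes led, Meg3 stood at 46430 to 48263 CPM after seizure and 24652 to 58824 CPM after immobilization. Snap25 stood there at 1137 to 1263 CPM and 512 to 1203 CPM. In all other N cells Meg3 stood at 245 to 298 CPM and 55.7 to 201 CPM. Snap25 in those other cells stood at 421 to 503 CPM and 477 to 516 CPM, above AS at 87.4 to 103 CPM and 53.6 to 105 CPM. Of the 1081 N cells that the authors also placed in their table of neurons, neuron genes led in 80. Summed astrocyte markers in N stood at 14035 to 15288 CPM in seizure libraries and 15033 to 15994 CPM in immobilization libraries. In AS these sums were 25664 to 27193 CPM and 27402 to 28977 CPM, and in OL 1566 to 1741 CPM and 1245 to 2860 CPM. Summed neuron markers in N stood at 7090 to 7769 CPM after seizure and 4106 to 7589 CPM after immobilization. The data thus go against reading N as neurons throughout, and it is called class N below, with its cells also split by the leading marker list.

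**Figure D1:**
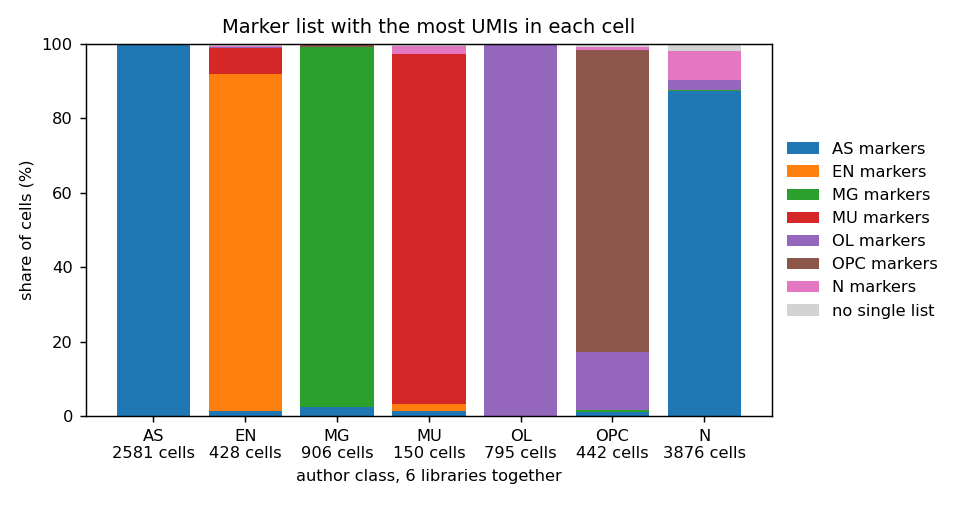
Share of cells (%, vertical axis) in which each of 7 marker lists had the most UMIs, for the 7 author classes (horizontal axis, with cell numbers) over the 6 libraries together. The list of the named type leads in 81.2% or more of cells in every class but N, where it leads in 7.87%.

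Over the 7 classes, 49 pairs of a gene and a class differed between seizure and immobilization in edgeR's quasi-likelihood test with Benjamini-Hochberg adjustment, of which 42 were higher and 7 lower after seizure. They came from 39 genes, and 9 genes passed in more than 1 class. Egr1 passed in AS, OPC and N, and Fos, Jun, Junb, Btg2 and Arc in both AS and N. Nr4a1 passed in AS and OPC, Cyr61 in AS and EN, and Fkbp5 in AS and MG. In 44 of the 49 pairs the seizure libraries did not overlap with the immobilization libraries. Over all genes tested, they lay above every immobilization library for 5.79% (N) to 10.6% (MU) of genes. They lay below for 4.73% (N) to 15.7% (MU). The pairs were called on these same values, so the lack of overlap is no separate support. Of all pairs, 12 passed in each fit that left out 1 seizure or immobilization library, and the other 37 were lost in at least 1 such fit. The median log2 difference over all genes tested lay between -0.01 and 0.01 in each class.

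In AS, the class of astrocytes, seizure libraries carried far more immediate early transcripts than immobilization libraries, and transcripts of 3 other genes, Nrros, Sav1 and Fkbp5, were lower. Of 10575 genes tested, 22 passed (0.208%), 19 higher (0.18%) and 3 lower (0.0284%). Of the 13 immediate early transcription factors tested, 7 were among the higher genes, and of 16 activity effectors Arc and Dusp1. Over all genes tested in AS, the seizure libraries lay above every immobilization library for 6.81% and below for 6.07%.

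Fos (chr12:85473890-85477273, plus strand), the AP-1 subunit, stood at 360.2 and 397 CPM in the seizure libraries, against 16.5, 13.1, 19.3 and 0 CPM in immobilization 1 to 4. Both seizure libraries lay far above every immobilization library, and naive libraries averaged 16.7 ± 4.92 CPM (SD, n = 5). The log2 difference was 4.61 (SE 0.28, edgeR adjusted p = 1.82e-14). Egr1 stood at 210.0 and 167 CPM after seizure, against 11.9, 13.8, 12.1 and 0 CPM after immobilization (log2 3.92, SE 0.29, edgeR adjusted p = 6.06e-12). Junb, another AP-1 subunit, stood at 64.8 and 86.1 CPM after seizure, against 14.6, 5.09, 7.24 and 0 CPM (log2 3.11, SE 0.42, edgeR adjusted p = 3.77e-05). These groups did not overlap for either gene. Nr4a1, an orphan nuclear receptor, stood at 76.6 and 54.8 CPM after seizure, against 11, 2.18, 9.65 and 13.4 CPM, also without overlap (log2 3.15, SE 0.43, edgeR adjusted p = 3.77e-05).

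**Figure D2:**
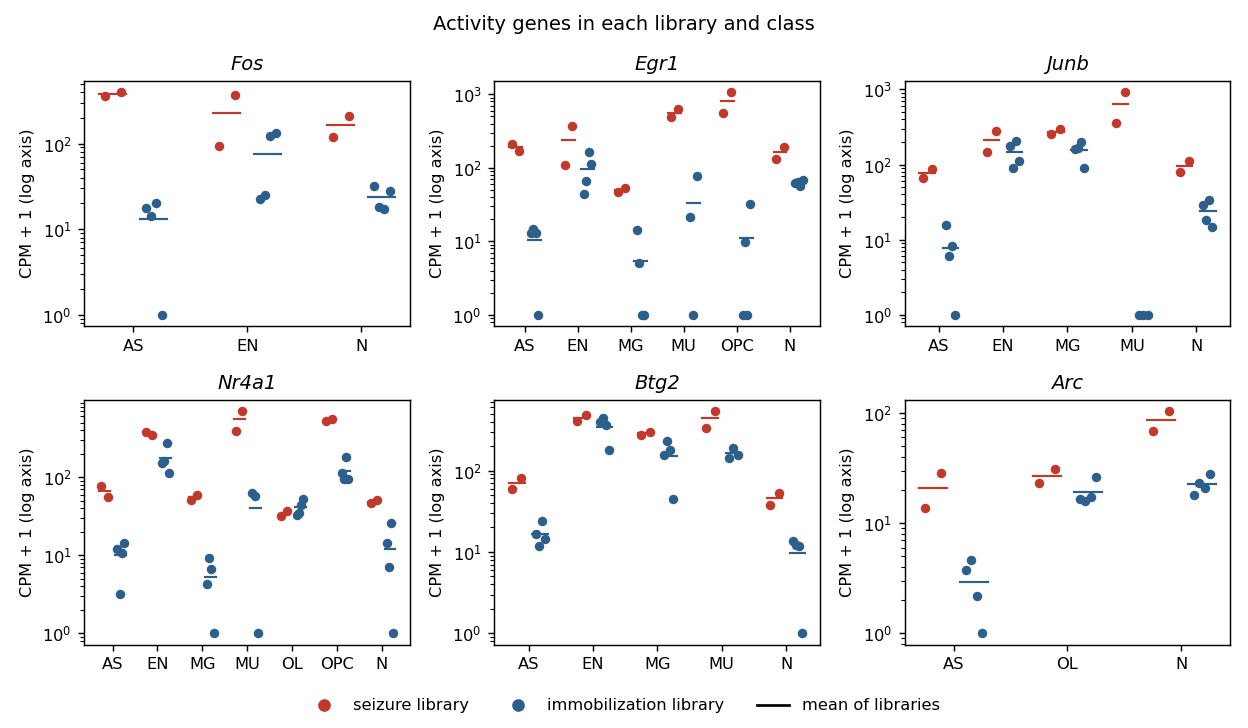
Levels of 6 activity genes (CPM plus 1, log axis) in each library, by author class where the gene was tested, with the seizure libraries in red left of the immobilization libraries in blue and bars at the group means. Fos, Egr1, Junb and Nr4a1 of the seizure libraries lie above every immobilization library in AS, while Fos and Egr1 overlap in EN.

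Dusp1, Btg2 and Zfp36l2 were higher in AS as well. Dusp1, which inactivates MAP kinases, stood at 55.0 and 52.2 CPM after seizure, against 7.32, 10.2, 19.3 and 13.4 CPM after immobilization (log2 2.18, SE 0.37, edgeR adjusted p = 0.00164). Btg2, an antiproliferative cofactor of mRNA deadenylation, stood at 57.9 and 80.9 CPM, against 15.6, 10.9, 22.9 and 13.4 CPM (log2 2.13, SE 0.33, edgeR adjusted p = 0.0003). Zfp36l2, which binds AU-rich mRNAs and promotes their decay, stood at 150.2 and 149 CPM, against 57.7, 49.4, 72.4 and 53.6 CPM (log2 1.36, SE 0.20, edgeR adjusted p = 0.000197). Neither of these last genes overlapped between treatments, and the naive means lay between them at 30.7 ± 6.07 CPM for Btg2 and 92.5 ± 24.3 CPM for Zfp36l2 (SD, n = 5). Jun stood at 102 and 83.5 CPM after seizure, against 31.1, 38.5, 49.5 and 40.2 CPM after immobilization, with naive libraries at 64.0 ± 6.82 CPM (log2 1.25, SE 0.22, edgeR adjusted p = 0.00201). The other genes higher in AS were Arc (log2 2.84), Ier2 (2.46), the secreted protease Adamts1 (2.09), the Notch ligand Jag1 (1.61), Fam181a (1.25), Zfp608 (1.18), the nuclear envelope protein Emd (1.12), the matricellular protein Cyr61 (1.00), the homeobox factor Nkx6-2 (0.95), the RNA-binding protein Cpeb4 (0.95) and Id1 (0.94), an inhibitor of basic helix-loop-helix factors. For Cyr61, seizure libraries held 229.7 and 228 CPM, immobilization libraries 91.6 to 134 CPM and naive libraries 38.1 ± 20.5 CPM (SD, n = 5).

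Nrros, which in microglia helps activate TGF-beta, was lower in AS at 13.7 and 19.6 CPM after seizure, against 60.4, 61.8, 65.2 and 67.0 CPM after immobilization (log2 -1.92, SE 0.33, edgeR adjusted p = 0.00164). Its seizure values lay within the range of naive libraries, 5.64 to 25.2 CPM, and the immobilization values above it. Sav1, a scaffold of the Hippo kinase cascade, had 2 UMIs in the seizure libraries together and 57 in the immobilization libraries, 0.981 and 1.30 CPM against 15.6, 16.0, 20.5 and 13.4 CPM. Both seizure libraries also lay below every naive library (6.67 to 22.6 CPM). The ratio of these counts was 0.0663 (95% exact interval 0.00784 to 0.251, counting error only; edgeR adjusted p = 0.0123). Fkbp5 (chr17:28399094-28517527, minus strand) stood at 5.89 and 26.1 CPM after seizure, against 45.8, 69.8, 74.8 and 40.2 CPM after immobilization (log2 -2.03, SE 0.42, edgeR adjusted p = 0.0230). The groups did not overlap, the seizure libraries differed from each other, and naive libraries averaged 5.44 ± 4.31 CPM (SD, n = 5).

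DESeq2 called 10 genes in AS, 9 higher and 1 lower (Nrros), without Fkbp5 (adjusted p = 0.132) and Sav1 (0.307). Among the higher genes, DESeq2 did not call Arc (adjusted p = 0.579), Ier2, Adamts1 and Cyr61 (0.315 each) or Id1 (0.205). Fos, Egr1, Junb, Nr4a1, Btg2 and Zfp36l2 passed in AS in each of the 6 fits without 1 library. Without seizure 1 the count of 22 became 6, without immobilization 2 it was 11 and without immobilization 3 it was 10. Without seizure 1, Dusp1 (log2 2.15, adjusted p = 0.168), Jun (1.11, 0.483), Nrros (-1.64, 0.483), Sav1 (-3.52, 0.717) and Fkbp5 (-1.22, 1) did not pass in edgeR's fit. Fkbp5 was also lost without immobilization 2 (-1.92, 0.158) or 3 (-1.91, 0.124), and Sav1 without seizure 2 (-3.91, 0.13) or immobilization 3 (-3.62, 0.0572). Arc (log2 2.22 to 3.34), Cyr61 (0.86 to 1.06), Jag1 (1.44 to 1.83) and Cpeb4 (0.76 to 1.10) were lost without any of the 6, Adamts1, Ier2 and Fam181a without any but immobilization 4, and Id1 without any but immobilization 1. Nkx6-2 was lost without seizure 1 or immobilization 3, Emd without seizure 1 or immobilization 1, 2 or 3, and Zfp608 without seizure 1 or 2 or immobilization 2 or 3. Ependymal markers were above 0 in log2 difference in AS for 4 of 4 genes (median 2.39, none past the threshold). Their sums were 151 to 290 CPM after seizure and 128 to 161 CPM after immobilization. Neuron markers were above 0 for 7 of 9 genes tested (median 0.38, none past the threshold), with sums of 553 to 629 CPM and 456 to 535 CPM, without overlap. Oligodendrocyte markers leaned the other way, above 0 for 1 of 6 (median -0.44). The part of such RNA in the AS results, Arc among them, was not tested.

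In class N the genes that separated the treatments were immediate early genes. Of 10250 genes tested, 9 passed (0.0878%) and all 9 were higher after seizure, 8 of them among the 18 immediate early transcription factors tested and the other Arc. No gene was lower in edgeR's test (148 at an unadjusted p under 0.05) or in DESeq2. Of the 9 higher genes, DESeq2 called Fos, Egr1 and Arc, and its adjusted p was 0.206 for Junb and 1 for the other 5. Over all genes tested in N, the seizure libraries lay above every immobilization library for 5.79% and below for 4.73%. Fos stood at 119 and 207 CPM in the seizure libraries, against 31.0, 17.1, 16.2 and 27.1 CPM in the immobilization libraries (log2 2.79, SE 0.29, edgeR adjusted p = 5.46e-08). Arc (chr15:74669083-74672570, minus strand), which governs the traffic of synaptic receptors, stood at 67.4 and 104 CPM, against 16.9, 22.3, 19.8 and 27.1 CPM (log2 2.07, SE 0.31, edgeR adjusted p = 0.000212). Junb stood at 78.8 and 111 CPM, against 28.2, 17.1, 32.4 and 13.6 CPM (log2 1.91, SE 0.30, edgeR adjusted p = 0.000432). For each of these genes the treatments did not overlap, and naive libraries averaged 5.97 ± 3.92 CPM for Fos, 8.39 ± 6.65 CPM for Arc and 8.92 ± 8.31 CPM for Junb (SD, n = 5).

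Egr1 differed less in N, at 132 and 192 CPM after seizure against 61.3, 63.3, 55.9 and 67.8 CPM after immobilization (log2 1.38, SE 0.21, edgeR adjusted p = 0.000212). Its immobilization libraries were tightly grouped and above every naive library (0 to 32.6 CPM). Npas4, a factor that neurons induce on calcium entry, stood at 20.2 and 31.1 CPM after seizure, against 2.82, 0, 1.80 and 0 CPM (log2 3.88, SE 0.74, edgeR adjusted p = 0.00972). Egr4, a relative of Egr1, stood at 58.6 and 74.3 CPM, against 16.9, 12.0, 14.4 and 67.8 CPM, so that immobilization 4 overlapped with the seizure libraries (log2 1.99, SE 0.35, edgeR adjusted p = 0.00256). Fosb (log2 2.12), Btg2 (1.94) and Jun (1.04) were the others that passed. Nr4a1 stood at 45.4 and 50.0 CPM against 0 to 25.2 CPM and did not pass (log2 1.88, edgeR adjusted p = 0.0694). Fos, Arc and Junb passed in each fit without 1 library. Without immobilization 2 the count of 9 became 4, and Npas4 (3.29, adjusted p = 0.157), Egr4 (1.79, 0.0888), Btg2 (1.94, 0.154), Fosb (1.79, 0.392) and Jun (1.11, 0.154) did not pass in edgeR's fit. Without seizure 2, Egr1 (1.12, 0.0579), Npas4 (3.59, 0.0737), Egr4 (1.83, 0.0615), Fosb (1.53, 0.932), Btg2 (1.71, 0.288) and Jun (0.94, 0.555) did not pass. Btg2 was lost without immobilization 1 or 3 too, Fosb without immobilization 3, and Jun without seizure 1 or immobilization 1 or 3.

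The split of N by leading marker list was chosen after the data were seen. In the cells led by neuron genes (89 and 55 cells after seizure, 69, 50 and 41 in immobilization 1 to 3 and 1 in immobilization 4), Fos stood at 111 and 165 CPM after seizure, against 30.6, 59.4 and 0 CPM in immobilization 1 to 3. Egr1 stood at 230.4 and 299 CPM against 40.8, 119 and 75.2 CPM, and Npas4 at 87.4 and 89.8 CPM against 20.4, 0 and 18.8 CPM. For these genes the seizure libraries lay above immobilization 1 to 3, at values that rest on few UMIs. How many of all genes lay that way in these cells was not counted. These few cells allowed 2758 genes to be tested, and edgeR called 0 of them (0.0%), with 55 at an unadjusted p under 0.05. Egr1 had a log2 difference of 1.86 there (SE 0.70, edgeR adjusted p = 0.999), and Fos, Arc, Junb and Npas4 did not pass the filter on low counts there. In all other N cells, 7 of 9401 genes were higher (0.0745%) and 0 lower: Fos (2.84), Arc (2.09), Btg2 (1.96), Egr4 (1.94), Junb (1.93), Egr1 (1.31) and Zfp36l2. Fosb (1.93, edgeR adjusted p = 0.0658) and Jun (0.96, 0.122) did not pass in these cells. Malat1, a long noncoding RNA kept in the nucleus, stood at 960.0 to 1164 CPM after seizure and 624 to 1072 CPM after immobilization in those other cells. In the cells led by neuron genes it stood at 25956 to 45240 CPM and 16368 to 29526 CPM, and in AS at 18218 to 27165 CPM and 17113 to 24543 CPM. The part of astrocyte RNA in the N results was not tested.

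**Figure D3:**
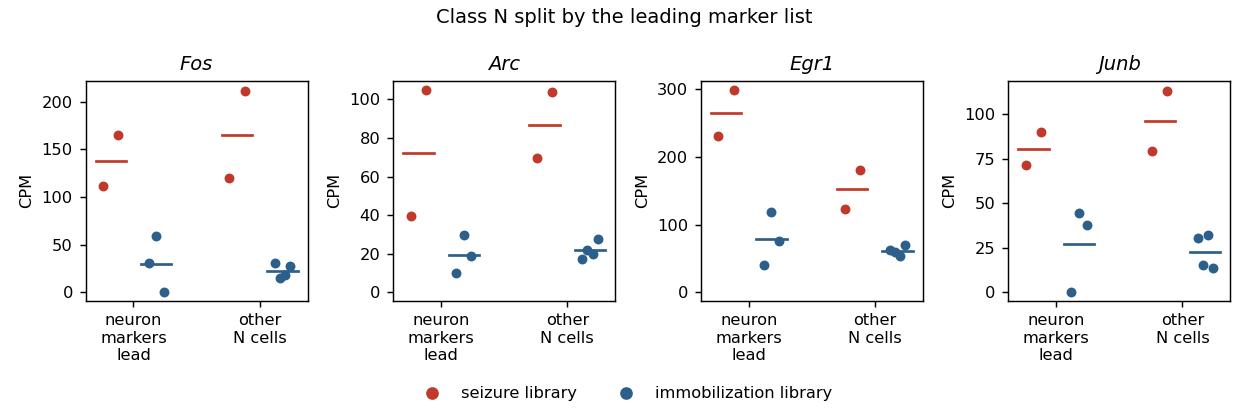
Levels (CPM, vertical axes) of Fos, Arc, Egr1 and Junb in class N, with cells in which neuron markers lead on the left of each panel and all other N cells on the right, seizure libraries in red left of immobilization libraries in blue, and bars at the means. Seizure libraries lie above every immobilization library shown for all 4 genes in both sets of cells. Where neuron markers lead, only immobilization 1 to 3 are shown, and Fos stood at 111 and 165 CPM against at most 59.4 CPM. In those cells edgeR called 0 of 2758 genes, and Fos, Arc and Junb did not pass the filter on low counts. How many of all genes lay that way there was not counted.

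In OPC, the oligodendrocyte precursors, Egr1 set the treatments furthest apart of the 3 genes that passed. It stood at 556 and 1068 CPM after seizure, against 0, 8.84, 0 and 31.4 CPM after immobilization, from 292 UMIs against 3. The ratio of these counts was 151 (95% exact interval 51.1 to 735, counting error only), and the edgeR adjusted p was 4.42e-15. Naive libraries averaged 15.2 ± 17.4 CPM (SD, n = 5), close to the immobilization libraries. Nr4a1 stood at 519 and 556 CPM after seizure, against 113, 92.8, 178 and 94.3 CPM (log2 2.13, SE 0.28, edgeR adjusted p = 1.72e-06). Hes1, a repressor that acts downstream of Notch, stood at 168 and 364 CPM, against 46.7, 70.7, 91.8 and 31.4 CPM (log2 1.96, SE 0.37, edgeR adjusted p = 0.00386). All 3 genes were without overlap, where 6.1% of all genes tested lay above and 6.52% below in that way. They were the 3 of 4997 genes tested that passed (0.06%), and 0 were lower in edgeR's test (91 at an unadjusted p under 0.05) and in DESeq2. DESeq2 called Nr4a1, and gave an adjusted p of 0.0625 for both Egr1 and Hes1. Of 5 immediate early transcription factors tested, Egr1 and Nr4a1 passed, and 5 of 5 had log2 differences above 0 (median 0.75). Without seizure 2, Hes1 did not pass (log2 1.33, edgeR adjusted p = 0.999), whereas Egr1 and Nr4a1 passed in every such fit. Oligodendrocyte markers lay below 0 in log2 difference in OPC for 4 of 4 genes tested (median -0.30), with sums of 7488 to 9962 CPM after seizure and 7509.7 to 19947 CPM after immobilization, and astrocyte markers above 0 for 4 of 5 (median 0.49; 1748 to 2031 CPM and 1127 to 2044 CPM). None of these passed, and their part in the OPC results was not tested. Id2 (1.06) and Id3 (1.74), relatives of Id1, were without overlap in their libraries too but did not pass (edgeR adjusted p = 0.281 and 0.328).

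In each of the vessel classes, EN and MU, 2 genes passed. In EN, the endothelial cells, 2 of 3965 genes passed (0.0504%), both higher after seizure; 0 were lower in edgeR's test (95 at an unadjusted p under 0.05) and 1 in DESeq2. 8430408G22Rik, which RefSeq names Depp1 and which FoxO factors induce, stood at 818 and 925 CPM after seizure, against 216, 137, 285 and 332 CPM after immobilization (log2 1.91, SE 0.29, edgeR adjusted p = 0.000849). Naive libraries stood at 142 ± 48.1 CPM (SD, n = 5). Cyr61 stood at 186 and 294 CPM, against 36.1, 17.9, 61.1 and 44.2 CPM (log2 2.63, SE 0.52, edgeR adjusted p = 0.0413). Both genes were without overlap. DESeq2 kept 8430408G22Rik (DESeq2 adjusted p = 0.0018) but not Cyr61 (0.143). Over all genes tested in EN, the seizure libraries lay above every immobilization library for 8.05% and below for 5.62%. The Cyr61 call was lost without seizure 2 (2.25, adjusted p = 0.853), immobilization 1 (2.60, 0.13), immobilization 2 (2.28, 0.349) or immobilization 4 (2.68, 0.0667) in edgeR's fit. The count of 2 was 1 without immobilization 1, 2 or 4, 5 without seizure 1 and 4 without immobilization 3.

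No immediate early transcription factor passed in EN, 0 of 19 in edgeR and in DESeq2 (6 higher and 1 lower at an unadjusted p under 0.05), with a median log2 of 0.13. Without overlap, 4 lay higher and 3 lower after seizure. Fosb stood at 207 and 303 CPM after seizure, against 14.4, 5.96, 112 and 0 CPM after immobilization (log2 2.89, edgeR adjusted p = 0.0987). Atf3 had a log2 difference of 2.20 (edgeR adjusted p = 0.161), Jun of 1.27 (0.161) and Nr4a1 of 0.99 (0.933), and Crem, which encodes CREM and its inducible repressor ICER, was among the 3 lower at -1.44 (0.339). Fos stood at 92.8 and 363 CPM after seizure, against 21.6, 23.8, 122 and 133 CPM after immobilization, with overlap (log2 1.80, SE 0.72, edgeR adjusted p = 0.929). Egr1 overlapped as well, at 109 and 372 CPM against 43.3, 65.5, 163 and 111 CPM. Apold1, an early response gene of vessels, stood at 2035 and 3347 CPM after seizure, against 1680.4, 1269, 2027 and 2211 CPM after immobilization, while naive libraries stood at 170.5 ± 96.1 CPM (SD, n = 5). The treatments overlapped for Apold1 (log2 0.56, SE 0.30, edgeR adjusted p = 1), and both lay far above the naive range of 78.8 to 334 CPM. Tsc22d3 stood at 971 and 925 CPM after seizure, against 1889.5, 1763, 1681 and 1061 CPM, without overlap but not past the threshold (log2 -0.80, SE 0.30, edgeR adjusted p = 0.907). Summed neuron markers were 491 and 2473 CPM in the seizure libraries and 287 to 1212 CPM in the immobilization libraries of EN, and blood markers 10220 to 12341 CPM and 2719 to 89106 CPM; their part in these results was not tested.

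In MU, the mural cells (pericytes and smooth muscle), 2 of 1020 genes passed (0.196%), over 2 seizure and 3 immobilization libraries of 21 to 40 cells. Errfi1, an inhibitor of the epidermal growth factor receptor that glucocorticoids also induce, stood at 1638 and 1294 CPM after seizure, against 365, 169.9 and 310.3 CPM after immobilization (log2 2.48, SE 0.44, edgeR adjusted p = 0.0203). Mt2, a metallothionein, stood at 1343 and 1127 CPM, against 182, 113 and 388 CPM (log2 2.66, SE 0.52, edgeR adjusted p = 0.0350). Neither overlapped. Over all genes tested in MU, the seizure libraries lay above every immobilization library for 10.6% and below for 15.7%. Mt1, a close relative whose reads may not be fully told apart from those of Mt2, did not pass (log2 2.30, edgeR adjusted p = 0.0746). Without seizure 2 or without immobilization 1 or 2 the count of 2 became 0, and without immobilization 3 it was 6. The values then ran over 2.14 to 2.75 for Errfi1 and 2.25 to 3.10 for Mt2. Both calls were also lost without seizure 1. None was lower in edgeR's test (17 at an unadjusted p under 0.05) or in DESeq2. Of 26 immediate early transcription factors listed, 7 could be tested in these small sums. In edgeR 0 of 7 passed (5 higher at an unadjusted p under 0.05) and in DESeq2 2. Their median log2 was 2.72 (also with Junb, below, at its bound). Enough counts in 2 libraries of any group let a gene be tested, so the seizure libraries alone could bring a low gene in. That median can thus be tilted upward by the filter and is no separate support. Egr1 stood at 491 and 626 CPM, against 20.3, 0 and 77.6 CPM, from 30 UMIs against 3 (ratio 23.5, 95% exact interval 7.31 to 120, counting error only; edgeR adjusted p = 0.208). Junb had 33 UMIs after seizure and none after immobilization, a difference of at least 25.9-fold when the immobilization group is set to a floor of 3 counts (edgeR adjusted p = 0.0586). Apold1 stood at 622 and 1043 CPM, against 142, 208 and 233 CPM, without overlap (log2 2.20, edgeR adjusted p = 0.139). Fibroblast markers were above 0 in log2 difference in MU for 4 of 4 genes (median 1.37, none past the threshold), with sums of 3079 to 10225 CPM after seizure and 2094 to 3569 CPM after immobilization; their part in the MU results was not tested.

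In MG, the microglia, Plek, Il1a, Ccl4 and 3 other genes were higher after seizure, and Fkbp5 and D4Wsu53e were lower. Of 6966 genes tested, 8 passed (0.115%), 6 higher (0.0861%) and 2 lower (0.0287%). Il1a, which encodes the cytokine interleukin-1 alpha, stood at 92.8 and 112 CPM after seizure, against 26.5, 16.6, 28 and 0 CPM after immobilization (log2 2.19, SE 0.48, edgeR adjusted p = 0.0433). Ccl4, a chemokine, stood at 122 and 23.5 CPM, against 3.31, 0, 0 and 0 CPM, from 33 UMIs against 1. The ratio of these counts was 60.4 (95% exact interval 10.1 to 2455, counting error only; edgeR adjusted p = 0.0416). Plek, pleckstrin, a substrate of protein kinase C in blood and immune cells, stood at 435 and 617 CPM, against 212, 203, 168 and 264 CPM (log2 1.45, SE 0.24, edgeR adjusted p = 0.00134). None of the 3 overlapped between treatments. Over all genes tested in MG, the seizure libraries lay above every immobilization library for 6.59% and below for 6.57%. Their naive libraries stood at 48.3 ± 32.7 CPM for Il1a, 64.4 ± 91.0 CPM for Ccl4 and 315 ± 88.6 CPM for Plek (SD, n = 5).

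Of the 8 inflammatory genes tested in MG, Ccl4 and Il1a passed, and 8 of 8 had log2 differences above 0 (median 0.78). In DESeq2 neither passed (adjusted p = 1 for Ccl4 and 0.432 for Il1a). Among the 8 were the chemokine Ccl12 (1.55, edgeR adjusted p = 0.209) and the endotoxin co-receptor Cd14 (0.62, 0.446 in edgeR). The long noncoding RNA G530011O06Rik (105 and 123 CPM after seizure, 0 to 26.5 CPM after immobilization), the zinc finger gene Zfp710 (211 and 264 CPM, 79.5 to 120.1 CPM) and the predicted gene Gm17087 (215 and 123 CPM, 20.7 to 89.5 CPM) were the others that were higher. Their naive means of 125, 241 and 133 CPM lay near the seizure libraries. Fkbp5 in MG stood at 109.7 and 329 CPM after seizure, against 537, 683, 850.0 and 659.6 CPM after immobilization (log2 -1.61, SE 0.32, edgeR adjusted p = 0.0144). Seizure 1 lay at the naive mean of 109.9 ± 67.0 CPM (SD, n = 5), and seizure 2 lay between it and the immobilization libraries. The other gene that was lower, D4Wsu53e, which RefSeq names Rsrp1, stood at 1055 and 675 CPM, against 1656, 1657, 1985 and 1319 CPM (log2 -0.87, SE 0.20, edgeR adjusted p = 0.0458).

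None of the 9 immediate early transcription factors tested in MG passed in edgeR (7 higher at an unadjusted p under 0.05) or in DESeq2, with a median log2 of 0.92. Egr1 stood at 46.4 and 52.9 CPM against 13.2, 4.14, 0 and 0 CPM (edgeR adjusted p = 0.444), and Nr4a1 at 50.6 and 58.7 CPM against 0 to 8.28 CPM (edgeR adjusted p = 0.164), both without overlap. DESeq2 called 3 genes in MG, Plek, G530011O06Rik and D4Wsu53e, and gave Fkbp5 an adjusted p of 0.583. Every MG call was lost in at least 1 fit without 1 library. The count of 8 became 1 without seizure 1, 2 without seizure 2, 3 without immobilization 1, 5 without immobilization 2 and 4 without immobilization 3. Plek was lost without seizure 2 (adjusted p = 0.214), and Fkbp5 without seizure 1 (-0.98, 1) or immobilization 3 (-1.46, 0.0652) in edgeR's fit. Il1a was lost without any of the 6 libraries (1.99 to 2.31), and Ccl4 without any but seizure 2 (3.62 without seizure 1). G530011O06Rik was lost without seizure 1 or 2 (2.64 and 2.43), Zfp710 without seizure 1 or 2 or immobilization 1 or 3 (highest adjusted p = 0.736), Gm17087 without any but immobilization 3, and D4Wsu53e without any but immobilization 4. Markers of perivascular macrophages had log2 differences below 0 for 4 of 4 genes tested (median -1.47, none past the threshold), with sums of 38.0 to 170.3 CPM after seizure and 50.3 to 1187 CPM after immobilization; their part in the MG results was not tested.

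**Figure D4:**
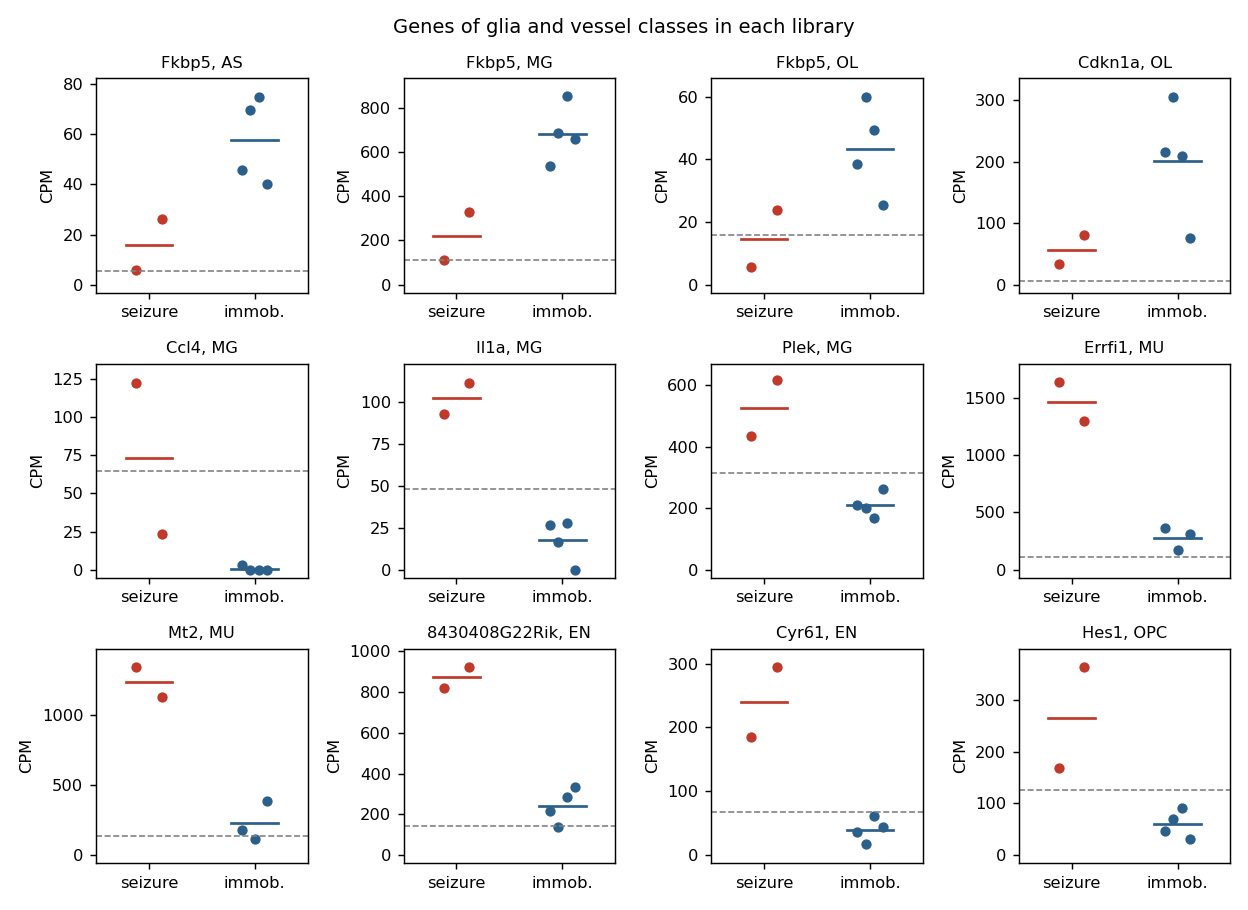
Levels (CPM, vertical axes from 0) of 12 genes in classes of glia and vessels, one point per library, seizure in red left of immobilization in blue, bars at the group means and a dashed line at the mean of naive libraries. Fkbp5 lies lower in both seizure libraries than in every immobilization library of AS, MG and OL, whereas Cdkn1a in OL overlaps at 80.6 CPM (seizure 2) and 76.2 CPM (immobilization 4).

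In OL, the oligodendrocytes, 3 of 7467 genes passed (0.0402%), 1 higher (0.0134%) and 2 lower (0.0268%). Hist1h1c, a linker histone, stood at 332 and 224 CPM after seizure, against 109, 98.6, 88.2 and 152 CPM after immobilization (log2 1.47, SE 0.25, edgeR adjusted p = 0.00412). Cdkn1a stood at 33.4 and 80.6 CPM, against 215, 304, 209 and 76.2 CPM, where immobilization 4, with 3 UMIs, overlapped (log2 -2.01, SE 0.36, edgeR adjusted p = 0.00643). Both treatments lay above the naive mean of 5.97 ± 9.41 CPM (SD, n = 5). Tma16, named for its association with the translation machinery in yeast, was lower by a log2 of -1.91 (SE 0.35, edgeR adjusted p = 0.00643). Fkbp5 stood at 5.57 and 23.9 CPM, against 38.5, 60.0, 49.2 and 25.4 CPM, without overlap but not past the threshold (log2 -1.69, SE 0.50, edgeR adjusted p = 0.487). Over all genes tested in OL, the seizure libraries lay above every immobilization library for 5.92% and below for 6.19%. Without seizure 1 none of the 3 passed (Hist1h1c 1.17, Cdkn1a -1.48, Tma16 -2.03; edgeR adjusted p = 0.786, 0.827 and 0.388), and Tma16 was also lost without seizure 2 (-1.80, 0.214). Blood markers lay below 0 for 3 of 3 genes tested in OL (median -4.23, none past the threshold), with sums of 5.97 to 25.1 CPM after seizure and 10.3 to 1082 CPM after immobilization, and their part was not tested. DESeq2 called 0 genes in OL, and 363 were under an unadjusted 0.05 in edgeR. Of 4 immediate early transcription factors tested, 0 passed in either tool (1 higher at an unadjusted p under 0.05). Arc stood at 22.3 and 29.9 CPM after seizure, against 15.8, 15, 16.4 and 25.4 CPM (log2 0.69, edgeR adjusted p = 0.999).

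Read by list, 13 of 13 immediate early transcription factors tested in AS had log2 differences above 0 (median 1.25), of 26 listed. In N it was 16 of 18 (median 1.24). Medians over all genes lay near 0. The filter on low counts asks for enough counts in only 2 libraries of any group, the number of seizure libraries. A low gene could thus be tested through the seizure libraries alone. This can tilt such counts and medians upward, here and for the other lists and classes, so they are no separate support. The glucocorticoid responsive genes leaned the other way in AS, N and OL. Their median was -0.33 in AS, with 6 of 22 members above 0, -0.28 in N, with 3 of 20, and -0.50 in OL, with 4 of 19. It was -0.18 in EN, -0.06 in OPC and -0.04 in MG, and above 0 in MU, at 0.49 with 5 of 7 members above 0. Fkbp5 in AS and MG and Cdkn1a in OL were the members that passed in the lower direction, while Dusp1 in AS and Errfi1 and Mt2 in MU passed in the higher one. DESeq2 called none of the 3 lower ones (adjusted p = 0.132 for Fkbp5 in AS, 0.583 in MG and 0.999 for Cdkn1a in OL). Below the threshold, Arrdc2, an arrestin domain protein, stood at 31.4 and 18.3 CPM against 38.4 to 67.6 CPM in AS without overlap (log2 -1.06, edgeR adjusted p = 0.292). Sult1a1, a sulfotransferase, stood at 152 and 288 CPM against 352 to 529.9 CPM in MG (log2 -1.14, edgeR adjusted p = 0.0638). The kinase Sgk1, also induced by glucocorticoids, stood the other way in MG, at 1106 and 1151 CPM after seizure against 514 to 770.5 CPM after immobilization (log2 0.95, edgeR adjusted p = 0.0753). Tsc22d3 overlapped between treatments in AS (637 and 1215 CPM, against 1018 to 1482 CPM), where both treatments lay above every naive library (211 to 578 CPM).

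**Figure D5:**
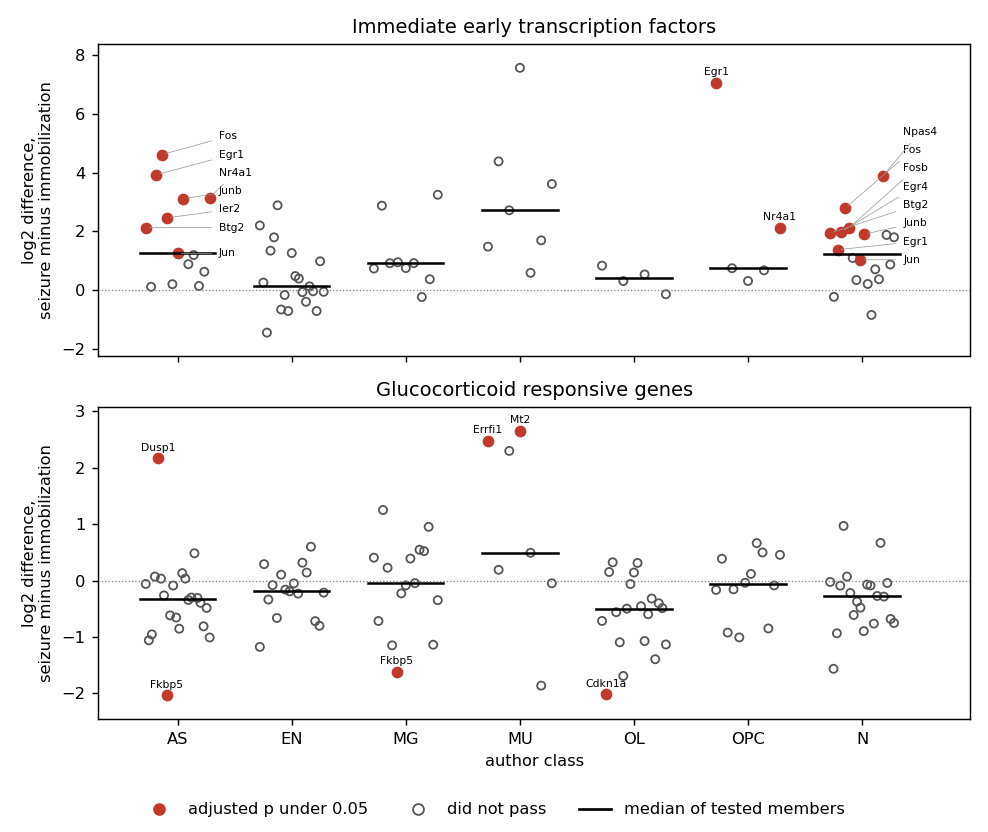
Log2 differences (seizure minus immobilization, vertical axes) of the tested members of 2 gene lists in each author class (horizontal axis), with filled red points for edgeR adjusted p under 0.05, open points for all others and bars at the medians. Immediate early medians are 1.25 in AS and 1.24 in N against 0.13 in EN. Glucocorticoid medians are below 0 in AS, N and OL. The open MU point at 7.56 is Junb, which had no UMI after immobilization. Seizure libraries alone could carry a low gene past the filter on low counts, which can tilt the medians upward.

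Other lists held few or no differences. Of the endothelial acute response genes, Cyr61 passed in EN (1 of 11) and Cyr61 and Adamts1 in AS (2 of 6). Of 17 genes of astrocyte identity and Notch signalling tested in AS, Id1 passed, and Sox2 was close (log2 0.67, edgeR adjusted p = 0.0727). In OPC, Hes1 passed of 11. Myelin genes had 0 of 10 in OL and homeostatic microglia genes 0 of 10 in MG in edgeR and in DESeq2 (0 and 4 at an unadjusted p under 0.05, the 4 higher). Blood-brain barrier genes had 0 of 12 in EN in both tools (1 lower at an unadjusted p under 0.05). Heat shock proteins had 0 of 9 in AS, all 9 with log2 differences above 0 (median 0.40), clock genes 0 of 14 and ribosomal proteins 0 of 70 in both tools (0, 2 and 1 higher at an unadjusted p under 0.05). Among neuropeptides 0 of 11 passed in N in both tools (3 higher at an unadjusted p under 0.05). Avp, the vasopressin gene, stood in N at 5.04 CPM in seizure 1 and 729 CPM in seizure 2, against 15.5, 0, 1.80 and 0 CPM after immobilization. Thus 1 library carried that difference.

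Whether the treatments differed by the same amount in other classes as in AS was tested directly, with an interaction term and each library as a block. Between EN and AS, 13 of 6669 genes passed (0.195%). The AS difference exceeded the EN difference for Fos (EN minus AS -2.73, SE 0.60, edgeR adjusted p = 0.0154), Egr1 (-2.61, 0.0199), Junb (-2.68, 0.0154), Ier2 (-2.59, 0.0154), Btg2 (-1.94, 0.0154), Dusp1 (-2.22, 0.0128) and Id1 (-1.41, 0.0180). In EN, Dusp1 averaged 399 CPM after seizure and 418 CPM after immobilization, and Fos 228 and 75.1 CPM. In AS the means were 53.6 and 12.6 CPM for Dusp1 and 378 and 12.2 CPM for Fos. Naive libraries averaged 81.9 ± 64.2 CPM for Dusp1 and 36.2 ± 53.2 CPM for Fos in EN (SD, n = 5). In AS they averaged 5.55 ± 4.46 CPM and 16.7 ± 4.92 CPM. All 13 were lost without immobilization 2, and 3 passed without seizure 1, seizure 2 or immobilization 3. Between MG and AS, 5 of 8792 genes passed (0.0569%). Nrros means ran in opposite directions, at 141 CPM after seizure and 51.6 CPM after immobilization in MG, and 16.7 and 63.6 CPM in AS. The MG minus AS difference of Nrros was 3.38 (SE 0.49, edgeR adjusted p = 6.79e-07). Within MG alone Nrros did not pass (log2 1.47). Junb (-2.34, edgeR adjusted p = 0.0011) and Zfp36l2 (-1.50, 0.0082) differed more in AS. Without seizure 1 the count of 5 was 2, and without immobilization 2 it was 3. Between N and AS, 4 of 11736 genes passed (0.0341%). The lowest adjusted p of the 4 was that of Avp (N minus AS 7.01, SE 0.66, edgeR adjusted p = 7.31e-17). As given above, 1 seizure library carried the Avp difference in N, so a low p in this test can rest on 1 library. Egr1 (N minus AS -2.55, SE 0.33, edgeR adjusted p = 7.08e-09) and Fos (-1.79, SE 0.37, 0.0129) differed more in AS, while Arc (-0.71, SE 0.62, 1) and Junb (-1.15, SE 0.45, 1) did not pass. This count was 2 without seizure 1 or immobilization 1, 2 or 4.

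The share of cells with at least 1 UMI of a gene was compared after thinning each cell to 600 UMIs. Fos was detected in 13.8% and 16.7% of AS cells after seizure, against 1.45%, 1.23%, 0.844% and 0% after immobilization (0 of 50 cells in immobilization 4, which allows up to 6%). In N the shares were 5.27% and 10.5%, against 1.49%, 0.662%, 0.928% and 0%. In OL, a class with little Fos, they were 0.719% and 1.57%, against 0%, 0%, 0.552% and 0%. Both seizure libraries lay above the immobilization libraries there too, and whether these OL shares are background was not tested. In OPC, 24.6% and 42.7% of cells held an Egr1 UMI after seizure, against 0%, 1.23%, 0% and 0% after immobilization, and Fos was in 5.08% and 6.10% of cells against 0 of 242, which allows up to 1.24%. Unthinned, means were 30.1% and 2.06% for Fos in AS, 15.5% and 2.73% in N, 2.23% and 0.403% in OL, and 54.0% and 2.01% for Egr1 in OPC. Before thinning the median depth was 1328.5 and 1390.5 UMIs in AS after seizure and 1207.5 to 1723 after immobilization, and in OL 2118 and 2213 against 1688.5 to 2772. Each of these differences reached the smallest p that an exact permutation test of 2 against 4 libraries allows, 0.0667 (two-sided, adjusted p = 0.165 over 42 pairs of gene and class), so none could pass. In EN, Fos was in 5.26% and 11% of cells after seizure, against 1.10%, 2.41%, 4.48% and 21.1% after immobilization, with overlap (exact permutation p = 0.933). Egr1 was in 9.47% and 12.3% of EN cells after seizure, against 4.40%, 3.61%, 5.97% and 0% (exact permutation p = 0.0667). Nr4a1 was in 21.1% and 20.5%, against 8.79%, 10.8%, 14.9% and 0%, also without overlap (exact permutation p = 0.133). For immobilization 4, 0 of 19 EN cells allows a share of up to 15.8%.

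No class share passed a test of a difference between treatments. N made up 44.2% ± 6.23 of cells after seizure (SD, n = 2) and 37.0% ± 8.40 after immobilization (n = 4), AS 26.7% ± 2.54 and 29.3% ± 3.72, and MU 1.30% ± 0.264 and 2.05% ± 0.536, lower by more than either SD. The lowest adjusted p of the exact permutation tests over 7 classes was 0.747, in a design whose smallest unadjusted p is 0.0667.

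Age was mixed within both treatments, so the comparison was repeated within each age, an addition made after the data were seen that leaves 1 seizure library at each age; the lone library is taken to vary like the other groups. Fos and Egr1 in AS, Egr1 and Nr4a1 in OPC and Fos in N passed at both ages. In AS, Fos had a log2 difference of 4.74 at 8 weeks (seizure 2) and 4.49 at 9 weeks (seizure 1). Genes that were lower varied in how far they kept their size. Nrros in AS stood at -1.59 at 8 weeks and -2.21 at 9 weeks, Sav1 in AS at -3.33 and -4.02, and D4Wsu53e in MG at -1.02 and -0.76, none past the threshold at either age. Fkbp5 in AS stood at -0.73 at 8 weeks (edgeR adjusted p = 1) and -3.60 at 9 weeks (0.0064), in MG at -0.63 (1) and -2.76 (0.000385), and Cdkn1a in OL at -1.19 (0.998) and -2.93 (0.00609). Since each age holds a single seizure library, age and library cannot be told apart here.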

How the data were processed

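Cells were from male mice, captured by Drop-seq after Act-Seq dissociation. The authors deposited raw UMI counts per gene and cell (16233 genes, 20679 cells of 16 libraries); per the submitters' processing notes they used bcl2fastq 2.17.1.14, STAR 2.5.0a and mm10. Each deposited cell name gives its library and class. Cells held at least 430 genes and 562 UMIs, and no mitochondrial gene is in the deposited counts. No doublet step is stated in the labels; no doublet caller was run, and leaving out the 5% of cells with the most UMIs is an alternative.

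Counts were summed per library and class, for libraries with at least 10 cells of the class, and tested with edgeR 4.0.16 (R 4.3.3): TMM scaling, filterByExpr, 1 quasi-likelihood fit per class over the seizure, immobilization, naive and odor Act-Seq libraries, the contrast seizure minus immobilization, and Benjamini-Hochberg adjustment over all genes of a class at 0.05. All 4 groups share 1 estimate of the spread. Printed SEs are the log2 difference divided by the square root of the F statistic. CPM are scaled to the UMIs of a library within the class. Naive values cover 5 libraries (4 in MU). Class differences used 1 fit over both classes with library as a block. Shares were compared by exact permutation over libraries (two-sided). Intervals and floors (3 counts) cover counting error only. The pipeline was tested on simulated counts with 200 changed genes per class. Of changes by a log2 of 1 in either direction it recovered 11.3% (MU) to 52.0% (N). Of changes by a log2 of 2 it recovered 55.3% (MU) to 87.9% (AS). For class differences these shares were 8.60% (EN) to 24.2% (N) and 38.3% (EN) to 66.3% (N). Among genes left unchanged in the simulation it called 2 (MU) to 15 (N), and for class differences 0 (EN and MG) to 6 (N). A gene or list that did not pass may thus still differ, and some calls may be false.

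Named genes were, in each class, up to 8 per direction with the lowest adjusted p among called genes without overlap, called members of the gene lists, and Fos, Egr1, Arc, Apold1, Tsc22d3 and Fkbp5 where tested; others named were chosen after their values were seen. The comparison and the lists were chosen with earlier results of these data known. Alternatives were DESeq2 1.42.0, its size factors, no filter on low counts, the 6 libraries alone, age or replicate number as terms, other cell sets, and each library left out. GENCODE M21 matched 15303 of 16233 genes by symbol and gave the gene coordinates (GRCm38); promoter windows are RefSeq's.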

Additional observations from a re-analysis of the deposited data

Results flagged for a closer look

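Of 70 groups of 4 to 5 libraries checked, 10 held 1 library far from the others by Dixon's test. For continuous values this test marks about 1 in 20 groups by chance. Several of the values below are 0 or rest on 1 UMI, so that rate is no guide here. Immobilization 4, the library of 182 cells, accounted for 7 of the 10. Relative to the other immobilization libraries it stood apart at 13.4 CPM for Ier2 and 0 CPM for Egr1 in AS, 25.4 CPM for Arc in OL, and 67.8 CPM for Egr4 and 0 CPM for Btg2 in N. It also stood apart with 10.4% of its cells in EN and with Fos UMIs in 21.1% of EN cells thinned to 600 UMIs. The others were Ccl4 in MG of immobilization 1 (3.31 CPM, others 0), the share of OL cells with a Fos UMI in immobilization 3 (0.552%, others 0%) and the share of OPC cells with an Egr1 UMI in immobilization 2 (1.23%, others 0%).

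The difference between seizure and immobilization itself differed between classes for 13 values of named genes, in edgeR's test of the interaction with Benjamini-Hochberg adjustment. On the log2 scale, EN minus AS was -2.22 for Dusp1, -2.73 for Fos, -2.61 for Egr1, -2.68 for Junb, -2.59 for Ier2, -1.94 for Btg2, -1.41 for Id1 and 8.11 for Nrros. The value of Nrros rests on a mean of 22.3 CPM after seizure and 0 CPM after immobilization in EN, so it depends on the prior count and is no measure of size. MG minus AS was 3.38 for Nrros, -2.34 for Junb and -1.50 for Zfp36l2. N minus AS was -2.55 for Egr1 and -1.79 for Fos.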

How the results depend on the processing

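Of 42 named calls, DESeq2 kept 19 of 42 past the threshold, DESeq2's size factors 41 of 42, no filter 42 of 42, age as a covariate 34 of 42 and the 6 libraries alone 39 of 41, all in the same direction. Counts of genes past the threshold moved more. Without a filter on low counts they were 42 in AS, 12 in EN, 21 in MG, 11 in MU, 8 in OL, 7 in OPC and 20 in N. With DESeq2 they were 10 in AS, 3 in MG, 5 in MU, 0 in OL, 1 in OPC and 3 in N. In fits of the 6 libraries alone they were 44 in AS, 12 in MU and 6 in OPC, and for class differences 20 for EN minus AS and 11 for N minus AS. With age as a covariate EN and MU had 1 each; with at least 30 cells EN had 5, and MU could not be fitted. Without the 5% of cells with the most UMIs, MG had 23 and MU 4. Within 8 weeks AS had 2, MG 1, OL 0 and N 4; within 9 weeks AS had 6, MG 1, MU 0, OL 5 and N 4. N had 3 among cells outside the table of neurons and 0 among cells led by neuron markers. The cause of these shifts was not tested, except that fewer libraries or cells enter some of these fits.

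Replicate numbers did not pair the libraries: deviations of same-numbered libraries correlated at -0.15 to 0.06 over 2 pairs per class. With the replicate block EN had 5 and N 5 genes, and the other classes stayed within 1.5 times their counts.

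Leaving out 1 library at a time gave 6 to 17 genes in AS, 1 to 5 in EN, 1 to 6 in MG, 0 to 6 in MU, 0 to 4 in OL, 2 to 4 in OPC and 4 to 11 in N, and 0 to 12 for EN minus AS, 2 to 5 for MG minus AS and 2 to 4 for N minus AS. Differences in class share, in percentage points, ran from -4.43 to -0.845 for AS, -1.78 to 0.310 for EN, -0.887 to 0.329 for MG, -0.935 to -0.515 for MU, -3.54 to -0.994 for OL, -1.07 to 1.30 for OPC and 2.79 to 11.6 for N. Without N cells outside the table of neurons, MG turned to 0.417 and OPC to 0.599. Differences in the share of cells with a UMI ran from 12.9 to 15.8 for Fos and 7.42 to 7.73 for Egr1 in AS, 4.50 to 9.70 for Fos and 1.86 to 4.02 for Arc in N, 5.08 to 6.10 for Fos and 24.3 to 42.4 for Egr1 in OPC, 0.581 to 1.44 for Fos in OL, 9.28 to 14.3 for Nr4a1 and -2.0 to 5.45 for Fos in EN, and -15.8 to -3.32 for Tsc22d3 in MG.

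Of named genes, 12 values changed sign, none of a call. Tsc22d3 turned to 0.16 in AS, 0.12 in MG and 0.20 in MU at 8 weeks, to 0.15 in MU and -0.12 in OPC without the cells richest in UMIs and to 0.0021 in MU with DESeq2. At 9 weeks the log2 of Tsc22d3 in OPC turned to -0.0813 and the log2 of Egr1 in EN to -0.0461, and at 8 weeks Fkbp5 in N turned to 0.58. Over fits without 1 library, Tsc22d3 ran from -0.81 to 0.031 in MG and from -0.95 to 0.51 in MU. Depth limits MU and immobilization 4 most: in MG of that library 1 UMI is 44.0 CPM.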

Other observations

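Genes outside the lists also passed the test of a class difference, and were chosen after their values were seen. Jag1 averaged 48.9 CPM after seizure and 126 CPM after immobilization in EN, and 34.1 and 12.0 CPM in AS. The EN minus AS difference of Jag1 was -2.92 on the log2 scale (edgeR adjusted p = 0.0180). Within EN alone Jag1 did not pass (log2 -1.32). Mthfd2, a mitochondrial folate enzyme, averaged 48.8 CPM after seizure and 3.88 CPM after immobilization in MG, and 5.55 and 17.8 CPM in AS. The MG minus AS difference of Mthfd2 was 5.14 (edgeR adjusted p = 0.0018). It passed neither within MG alone (log2 3.11) nor within AS alone (-1.98).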
